A study of Macaca mulatta with 12 samples.

Results

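The HOX genes are homeobox transcription factor genes that lie in 4 clusters, named A, B, C and D, and carry a paralogue number for their place along the cluster. They were taken as every row of the deposited expression table whose symbol is HOX followed by a cluster letter and a paralogue number, which gave 34 of 16745 rows: 10 of cluster A and 8 each of clusters B, C and D. A RefSeq gene table of the rhesus macaque lists 39 such symbols, and HOXA4, HOXB2, HOXB3, HOXC5 and HOXD11 were not analysed here. The RNA came from cardiomyocytes that had been derived from induced pluripotent stem cells of a non-human primate, the rhesus macaque (Macaca mulatta), and all 4 groups were grown in RPMI medium with B27 supplement containing insulin. The groups were flat monolayers (2D) in normoxia, monolayers after hypoxia, engineered heart tissues (EHT, 3D) in normoxia and EHTs after hypoxia, each with 3 libraries. Hypoxia meant 24 h in an anaerobic pouch and a further 24 h once the medium had been renewed, and the labels do not give the oxygen level during the latter. The labels do not say how many lines, animals, differentiations or tissues the libraries came from, so p-values cover the spread between these libraries, which may be technical.

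HOX proteins bind DNA together with PBX, MEIS and PKNOX homeodomain cofactors and give cells their place along the head-to-tail axis of the embryo. Genes at the low-numbered end of a cluster are switched on early and towards the head, in part by retinoic acid, and genes at the high-numbered end are switched on later and towards the tail and the limb tips. In the mouse, Hoxb1 and Hoxa3 are active in heart progenitors of the second heart field, and human fibroblasts of different body sites keep different HOX patterns. Members are grouped below as anterior (paralogue groups 1 to 3), central (4 to 8) and posterior (9 to 13).

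The deposited values are variance-stabilised log2 values with a table minimum of 3.00, which stands for a gene without a read. Inverting the transformation gave whole reads for all genes (within 0.01 of a whole number), and library totals ran from 4154346 to 11298841 reads. Levels are given here as rescaled reads, the recovered reads divided by a median-of-ratios factor of each library. They are not divided by gene length, so a level is compared between libraries and not between genes. EHT hypoxia library 3, with a total of 4418409 reads, held 204 HOX reads and had 19 members at the minimum, against 9 in each of the other two libraries of its group. Against the labelled cell type, 10 cardiomyocyte markers summed to between 465 and 3317 RPM (the usual scaled unit, reads relative to the library total) in the monolayers in normoxia, 5149 to 5679 in the monolayers after hypoxia, 13.9 to 157 in the EHTs in normoxia and 20.1 to 737 in the EHTs after hypoxia. In the same group order, 9 fibroblast markers summed to 33271 to 70422, 43721 to 48949, 51946 to 63188 and 51193 to 68046 RPM, and 7 epithelial markers to 968 to 5013, 39.3 to 47.8, 7.51 to 13.2 and 10.6 to 75.8. Such sums are carried by their most abundant members. Tested singly, 3 of the 9 fibroblast markers were higher and 0 lower in EHT in normoxia. After hypoxia it was 4 higher and 1 lower. In that group order, the ranges of 6 epicardial or mesothelial markers were 167 to 227, 62.8 to 71.8, 9.63 to 23.4 and 13.1 to 42.0 RPM, and those of 5 endothelial markers were 192 to 412, 185 to 225, 29.1 to 63.2 and 16.7 to 95.6. The endothelial markers did not all move with their sum. Of the 4 tested as below, 2 were lower and 1 higher in EHT than in monolayer in normoxia. After hypoxia 1 was lower and 2 higher. Of the pluripotency markers, POU5F1 and LIN28A were at 0 in every library, while SOX2 had 5.31, 21.9 and 11.8 RPM in the normoxic monolayers, at most 1.27 in the hypoxic monolayers, at most 0.231 in the normoxic EHTs and at most 4.67 in the hypoxic EHTs. In bulk RNA, fewer cells of a type and less RNA per cell cannot be told apart, and the part of these marker differences in the HOX differences below was not tested.

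Monolayers held more HOX reads than EHTs. The HOX total was 5609, 4486 and 4409 reads in the monolayers in normoxia, 2183, 2821 and 2771 in the monolayers after hypoxia, 502, 1471 and 899 in the EHTs in normoxia, and 778, 1111 and 204 in the EHTs after hypoxia. As RPM this was 489.6 ± 71.9, 301.1 ± 22.3, 136 ± 29.5 and 117 ± 63.2 in the same order of groups (mean ± SD, n = 3). Every monolayer library was above every EHT library. With median-of-ratios scaling the monolayer totals were 374 ± 58.2 in normoxia and 361 ± 18.3 after hypoxia, a difference within the spread between libraries.

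Members without reads were more numerous in EHT. The EHT libraries were also shallower, with 4154346 to 8670347 reads against 7068098 to 11298841 in the monolayers. Over all genes, 11784 to 12992 had a read in an EHT library and 13075 to 14372 in a monolayer library. The part of depth in the HOX counts was not tested. In every library of a group, 4 members were at the table minimum in the monolayers in normoxia, 2 in the monolayers after hypoxia, 11 in the EHTs in normoxia and 8 in the EHTs after hypoxia. HOXD9 was the only member at the minimum in all 12 libraries, where a count of 0 allows up to 3 reads in each library, for counting error only. Each of HOXB13, a prostate and hindgut gene, HOXC12 and HOXD12 had 1 read in a single hypoxic monolayer and none elsewhere. HOXB1, a hindbrain gene, had 0, 1 and 6 reads in the normoxic monolayers and none elsewhere. Reads in every library of the group were found for 28 members in the monolayers in normoxia, 29 in the monolayers after hypoxia, 17 in the EHTs in normoxia and 15 in the EHTs after hypoxia.

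3 posterior members had reads in each of the 6 monolayers and none in any of the 6 EHTs, which leaves at most the floor of 3 reads over each EHT group. HOXA13, a gene of digits and genital tract whose human mutations cause hand-foot-genital syndrome, had 33, 21 and 3 reads in the monolayers in normoxia and 10, 15 and 33 after hypoxia. After rescaling it was at least 10.6-fold higher in monolayer than in EHT in normoxia and at least 13.7-fold higher after hypoxia, or at least 8.96-fold without monolayer hypoxia library 3. HOXD13, whose human mutations cause fused and extra digits, had 24, 14 and 5 reads in the monolayers in normoxia and 7, 5 and 7 after hypoxia, and was higher in monolayer by at least 7.99-fold in normoxia and at least 4.49-fold after hypoxia. HOXC11, a gene of the lumbar and sacral trunk, had 3, 2 and 1 reads in the monolayers in normoxia and 20, 29 and 24 after hypoxia, when it was at least 17.2-fold higher in monolayer than in EHT. The monolayer groups did not overlap for HOXC11. These 3 genes, with HOXB1, HOXB13, HOXC12, HOXD9 and HOXD12, lay below the filter on low values and were not among the 26 members tested across all genes. When every gene with a read was tested, HOXC11 was higher in the monolayers after hypoxia than in normoxia by 3.65 ± 0.33 on the log2 scale (SE, limma adjusted p = 8.37e-06).

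**Figure D1:**
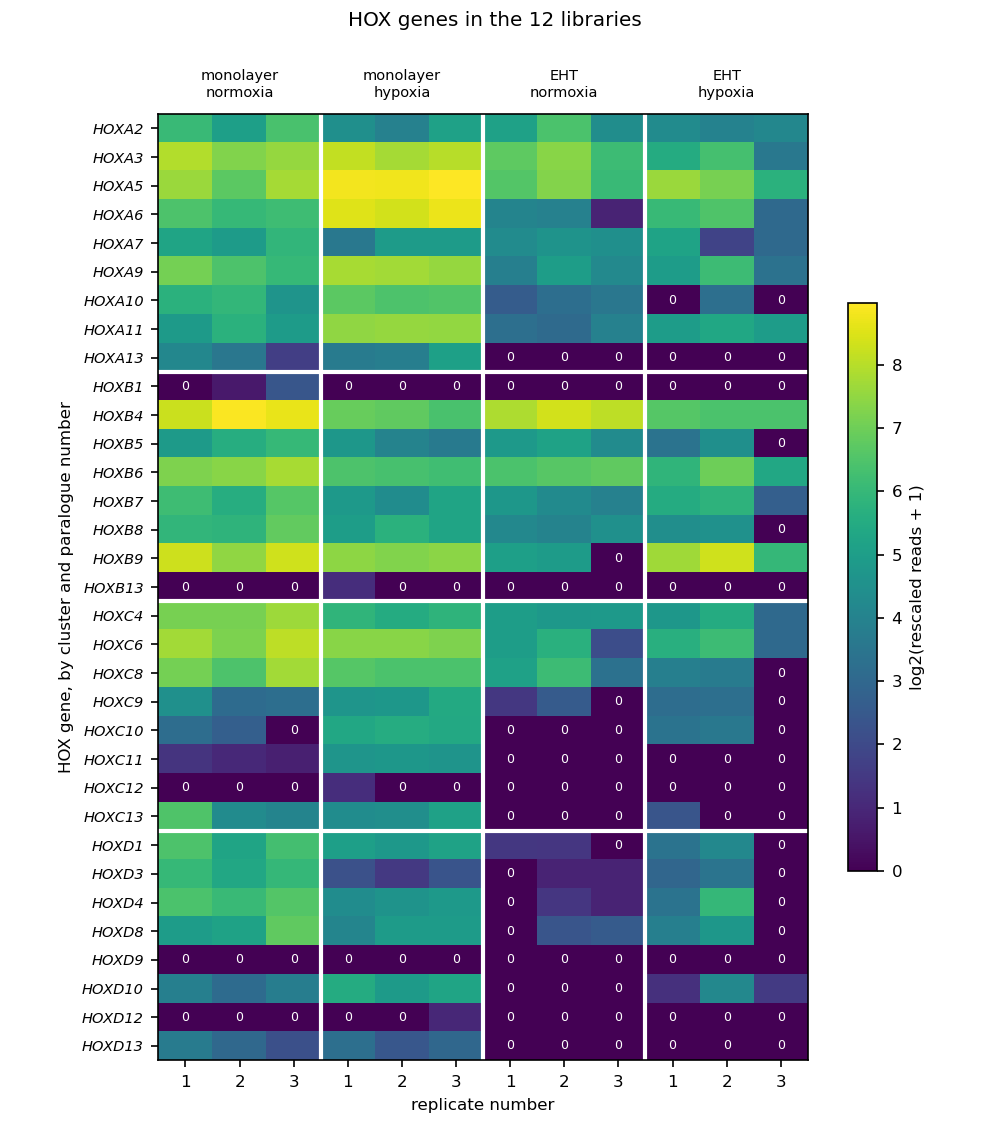
Levels of the HOX genes reported by name (rows, by cluster and paralogue number) in the 12 libraries (columns, 3 per group), as log2(rescaled reads + 1); a printed 0 marks a gene without a read. The EHT columns hold 11 (normoxia) and 8 (hypoxia) genes without a read in any library of the group, against 4 and 2 in the monolayer columns.

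In cluster A, HOXA2 and HOXA3 lie at the anterior end. HOXA2, which sets the identity of the second branchial arch in the mouse, had 67.1, 32.3 and 82.9 rescaled reads in the monolayers in normoxia, 21.1, 14.3 and 34.2 in the monolayers after hypoxia, 34.6, 85.6 and 20.1 in the EHTs in normoxia and 19.2, 14.9 and 16.8 in the EHTs after hypoxia. The monolayer groups overlapped, and the EHT groups did not, though their nearest libraries, 20.1 and 19.2, almost met. HOXA3, needed for the thymus and parathyroid in the mouse, had 247, 152 and 189 rescaled reads in the monolayers in normoxia, 281, 219 and 256 in the monolayers after hypoxia, 107, 165 and 70.5 in the EHTs in normoxia and 45.2, 79.6 and 11.2 in the EHTs after hypoxia. The hypoxic monolayers were above every EHT, and the normoxic EHTs overlapped both the normoxic monolayers and the hypoxic EHTs.

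The central members of cluster A were highest in the hypoxic monolayers, except for HOXA7. HOXA5, a gene of lung and trachea development in the mouse, had 197, 105 and 217 rescaled reads in the monolayers in normoxia, 449, 439 and 502 in the monolayers after hypoxia, 95.1, 159 and 67.1 in the EHTs in normoxia and 199, 139 and 52.3 in the EHTs after hypoxia. The hypoxic monolayers were above every other library and the other 3 groups overlapped. HOXA6, a gene of the thoracic level, had 88.5, 63.1 and 72.2 rescaled reads in the monolayers in normoxia, 367, 331 and 417 in the monolayers after hypoxia, 15.6, 14.3 and 0.839 in the EHTs in normoxia and 65.8, 90.8 and 7.46 in the EHTs after hypoxia. The hypoxic monolayers stood above all others and the normoxic EHTs below every monolayer, where 0.839 stands for 1 read; the hypoxic EHTs spread across the range of the normoxic EHTs and normoxic monolayers. HOXA7, also of the thoracic level, had 36.6, 29.8 and 58.6 rescaled reads in the monolayers in normoxia, 11.2, 29.5 and 29.1 in the monolayers after hypoxia, 19.0, 23.5 and 21.0 in the EHTs in normoxia and 35.6, 2.49 and 7.46 in the EHTs after hypoxia. The normoxic monolayers were above the hypoxic monolayers and the normoxic EHTs, and the hypoxic EHTs overlapped all 3.

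The tested posterior members of cluster A were likewise highest in the hypoxic monolayers. HOXA9, which acts with MEIS1 in blood progenitors and leukaemia, had 136, 87.8 and 62.9 rescaled reads in the monolayers in normoxia, 224, 213 and 188 in the monolayers after hypoxia, 13.8, 31.1 and 17.6 in the EHTs in normoxia and 30.1, 70.9 and 9.33 in the EHTs after hypoxia. The hypoxic monolayers were above all others, and the hypoxic EHTs overlapped the normoxic groups of both cultures. HOXA10, a gene of the uterus, had 52.4, 60.1 and 24.3 rescaled reads in the monolayers in normoxia, 104, 87.6 and 91.4 in the monolayers after hypoxia, 5.19, 8.39 and 10.9 in the EHTs in normoxia and 0, 8.71 and 0 in the EHTs after hypoxia. The 6 monolayers lay above the 6 EHTs, the monolayer groups did not overlap, and 2 of the 3 hypoxic EHTs had no read. HOXA11, which shapes the forearm in the mouse together with Hoxd11, had 28.5, 52.4 and 29.3 rescaled reads in the monolayers in normoxia, 176, 185 and 184 in the monolayers after hypoxia, 8.65, 7.55 and 14.3 in the EHTs in normoxia and 30.1, 39.8 and 29.9 in the EHTs after hypoxia. The hypoxic monolayers were above every other library, the normoxic EHTs below every other library, and the remaining groups overlapped.

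In cluster B, 1 member separated all 12 libraries by oxygen. Over all genes tested, the oxygen groups did not overlap for 64.1% in monolayers and 44.3% in EHT. The share of all genes that separated all 12 was not counted. HOXB4, known for expanding blood stem cells in culture, had 304, 488 and 413 rescaled reads in the monolayers in normoxia, 118, 109 and 82.4 in the monolayers after hypoxia, 235, 331 and 272 in the EHTs in normoxia and 95.9, 84.6 and 85.8 in the EHTs after hypoxia. All 6 normoxic libraries were above all 6 hypoxic ones, whatever the culture. HOXB5, a gene of the neural crest of the gut in the mouse, had 28.5, 47.2 and 62.9 rescaled reads in the monolayers in normoxia, 26.0, 15.2 and 12.1 in the monolayers after hypoxia, 27.7, 35.3 and 19.3 in the EHTs in normoxia and 9.59, 21.1 and 0 in the EHTs after hypoxia. The monolayer groups did not overlap, and both EHT groups overlapped the hypoxic monolayers.

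HOXB6, a central member, had 151, 166 and 224 rescaled reads in the monolayers in normoxia, 86.8, 80.4 and 74.4 in the monolayers after hypoxia, 86.5, 99.9 and 109 in the EHTs in normoxia and 57.5, 127 and 41.1 in the EHTs after hypoxia. Normoxic monolayers lay above all others, which overlapped. HOXB7, raised in several human tumours, had 71.7, 47.7 and 96.5 rescaled reads in the monolayers in normoxia, 27.3, 19.7 and 37.2 in the monolayers after hypoxia, 25.9, 18.5 and 14.3 in the EHTs in normoxia and 45.2, 54.7 and 5.6 in the EHTs after hypoxia. The normoxic monolayers were above the hypoxic monolayers and the normoxic EHTs, and the hypoxic EHTs spread over the ranges of the other 3 groups. HOXB8, a gene of blood-derived microglia and grooming in the mouse, had 59.0, 56.5 and 111 rescaled reads in the monolayers in normoxia, 31.0, 52.7 and 37.2 in the monolayers after hypoxia, 17.3, 15.1 and 21.8 in the EHTs in normoxia and 20.6, 22.4 and 0 in the EHTs after hypoxia. All monolayers were above all EHTs, and the monolayer groups did not overlap.

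HOXB9, a thoracic gene and the only posterior member of cluster B that was tested, had 312, 178 and 322 rescaled reads in the monolayers in normoxia, 175, 153 and 169 in the monolayers after hypoxia, 32.9, 29.4 and 0 in the EHTs in normoxia and 204, 317 and 61.6 in the EHTs after hypoxia. The normoxic EHTs were below every other library, with no read in library 3, and the hypoxic EHTs overlapped both monolayer groups.

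In cluster C, 3 of the 6 tested members had every monolayer above every EHT. Over all genes tested, the cultures did not overlap for 56.4% in normoxia and 51.9% after hypoxia. The share of all genes apart in all 12 libraries was not counted. HOXC4, which in human shares a promoter and a noncoding first exon with HOXC6, had 140.4, 139 and 202 rescaled reads in the monolayers in normoxia, 57.0, 44.7 and 56.3 in the monolayers after hypoxia, 31.1, 26.9 and 27.7 in the EHTs in normoxia and 26.0, 44.8 and 7.46 in the EHTs after hypoxia. Highest were the normoxic monolayers, the hypoxic monolayers lay above the normoxic EHTs, and the hypoxic EHTs met both of the latter. HOXC6, which marks motor neurons of the arm level, had 211, 146 and 267 rescaled reads in the monolayers in normoxia, 166, 164 and 152 in the monolayers after hypoxia, 31.1, 51.2 and 3.35 in the EHTs in normoxia and 49.3, 69.6 and 7.46 in the EHTs after hypoxia. HOXC8, a gene of thoracic vertebrae in the mouse, had 135, 87.3 and 212 rescaled reads in the monolayers in normoxia, 96.7, 85.8 and 86.4 in the monolayers after hypoxia, 34.6, 70.5 and 9.23 in the EHTs in normoxia and 13.7, 12.4 and 0 in the EHTs after hypoxia. For both genes all monolayers were above all EHTs, and the oxygen groups overlapped within each culture.

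HOXC9, which marks motor neurons of the chest level, had 21.9, 7.7 and 8.57 rescaled reads in the monolayers in normoxia, 24.8, 25.9 and 43.2 in the monolayers after hypoxia, 1.73, 5.04 and 0 in the EHTs in normoxia and 8.22, 8.71 and 0 in the EHTs after hypoxia. Every hypoxic monolayer was above all others and every normoxic EHT below the monolayers. HOXC10, which marks motor neurons of the leg level, had 8.14, 5.65 and 0 rescaled reads in the monolayers in normoxia, 40.9, 45.6 and 42.2 in the monolayers after hypoxia, 0, 0 and 0 in the EHTs in normoxia and 9.59, 11.2 and 0 in the EHTs after hypoxia. Hypoxic monolayers were above all others, and the normoxic EHTs had no read. HOXC13, which drives hair and nail keratin genes, had 89.0, 19.0 and 15.7 rescaled reads in the monolayers in normoxia, 19.8, 20.6 and 34.2 in the monolayers after hypoxia, 0, 0 and 0 in the EHTs in normoxia and 4.11, 0 and 0 in the EHTs after hypoxia. All monolayers were above all EHTs, of which 5 of 6 had no read and the other had 3. HOXC13 passed the filter on low values through its monolayer reads, which favoured this order.

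In cluster D the 5 tested members passed the filter on low values through their monolayer reads. This fixed a lower level in EHT over both oxygen groups together, and favoured it within each. HOXD1, a gene of pain-sensing neurons in the mouse, had 88.5, 37.0 and 77.9 rescaled reads in the monolayers in normoxia, 32.2, 26.8 and 35.2 in the monolayers after hypoxia, 1.73, 1.68 and 0 in the EHTs in normoxia and 9.59, 17.4 and 0 in the EHTs after hypoxia. The normoxic monolayers were above the hypoxic monolayers, which were above all EHTs. HOXD3, a gene of the upper neck vertebrae in the mouse, had 63.1, 40.6 and 61.5 rescaled reads in the monolayers in normoxia, 3.72, 1.79 and 4.02 in the monolayers after hypoxia, 0, 0.839 and 0.839 in the EHTs in normoxia and 6.85, 9.95 and 0 in the EHTs after hypoxia. The normoxic monolayers were above every other library, and the normoxic EHTs had 0, 1 and 1 reads. HOXD4, a retinoic acid-responsive gene of the neck vertebrae and hindbrain, had 85.5, 66.7 and 93.6 rescaled reads in the monolayers in normoxia, 19.8, 23.2 and 28.1 in the monolayers after hypoxia, 0, 1.68 and 0.839 in the EHTs in normoxia and 9.59, 62.2 and 0 in the EHTs after hypoxia. Again the normoxic monolayers were highest, and the hypoxic EHTs ran from no read to near the normoxic monolayers.

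HOXD8, a central member, had 30.0, 35.4 and 108 rescaled reads in the monolayers in normoxia, 16.1, 29.5 and 29.1 in the monolayers after hypoxia, 0, 4.2 and 5.03 in the EHTs in normoxia and 13.7, 26.1 and 0 in the EHTs after hypoxia. Normoxic monolayers were highest, the normoxic EHTs lay below all monolayers, and the hypoxic EHTs overlapped all but the normoxic monolayers. HOXD10, a gene of the leg-level spinal cord in the mouse, had 13.7, 7.7 and 12.9 rescaled reads in the monolayers in normoxia, 44.6, 28.6 and 37.2 in the monolayers after hypoxia, 0, 0 and 0 in the EHTs in normoxia and 1.37, 17.4 and 1.87 in the EHTs after hypoxia. All 3 hypoxic monolayers exceeded the rest, and the normoxic EHTs had no read.

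**Figure D2:**
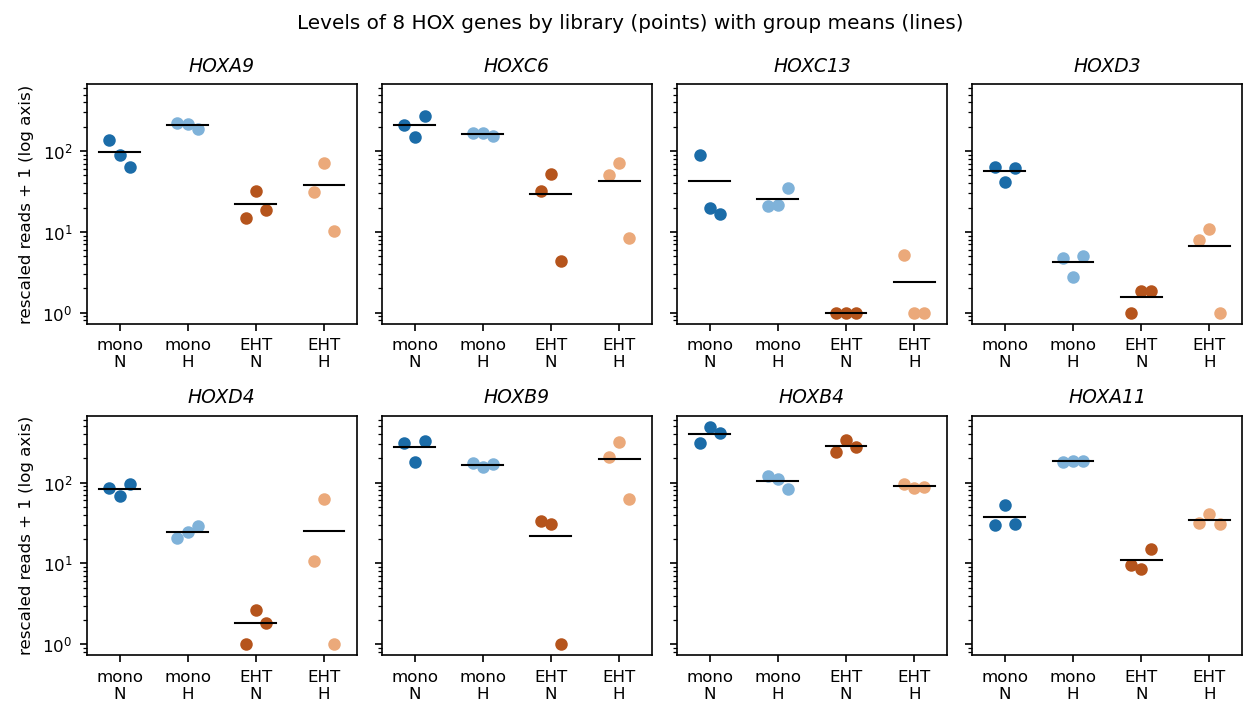
Levels of 8 HOX genes as rescaled reads + 1 (log axis) in each library, with points for libraries and lines for group means (mono, monolayer; N, normoxia; H, hypoxia). HOXC13 and HOXD3 show EHT libraries at the floor, HOXB4 shows 6 normoxic libraries above 6 hypoxic ones, and HOXA11 is highest in the hypoxic monolayers.

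The mix of HOX reads also differed by group. Cluster A gave 31.4% ± 4.47 of a library's HOX reads in the monolayers in normoxia, 62.9% ± 1.30 in the monolayers after hypoxia, 39.8% ± 4.07 in the EHTs in normoxia and 41.4% ± 6.06 in the EHTs after hypoxia (mean ± SD, n = 3). In the same order, cluster B gave 38.1% ± 5.21, 16.3% ± 1.34, 49.9% ± 7.55 and 45.7% ± 5.19. Cluster C gave 20.4% ± 2.49, 16.02% ± 0.33, 9.71% ± 3.83 and 8.32% ± 3.81. Cluster A was the largest part in the hypoxic monolayers, in each of the 3 libraries. Cluster D gave 10.02% ± 1.46, 4.75% ± 0.30, 0.59% ± 0.35 and 4.66% ± 4.62, and was below 1% in each normoxic EHT.

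By paralogue class, posterior members gave 19.5% ± 4.49 of HOX reads in the monolayers in normoxia, 31.4% ± 0.63 in the monolayers after hypoxia, 6.48% ± 0.76 in the EHTs in normoxia and 29.4% ± 4.22 in the EHTs after hypoxia. The posterior share was higher after hypoxia in both cultures, with no overlap between libraries. In monolayers the summed posterior level itself was 94.8 ± 22.4 RPM in normoxia and 94.5 ± 5.76 after hypoxia (72.6 ± 18.4 and 113 ± 4.18 with median-of-ratios scaling), while the central sum was 304 ± 64.5 and 167 ± 10.4 RPM and the anterior sum 90.7 ± 19.4 and 39.8 ± 6.59. In EHT the posterior sum was 8.82 ± 2.30 RPM in normoxia and 35.7 ± 22.5 after hypoxia. Without HOXB9 and HOXA9 the posterior shares were 6.36% ± 2.89, 17.4% ± 0.46, 2.28% ± 0.92 and 6.52% ± 1.68, again without overlap between the oxygen groups of a culture. Anterior members gave 18.5% ± 2.88, 13.2% ± 1.28, 21.5% ± 2.95 and 13.5% ± 2.94, and central members 62.0% ± 7.22, 55.4% ± 1.05, 72.0% ± 3.46 and 57.1% ± 2.75. These shares carry no test, and they weigh long genes and short genes by their reads.

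**Figure D3:**
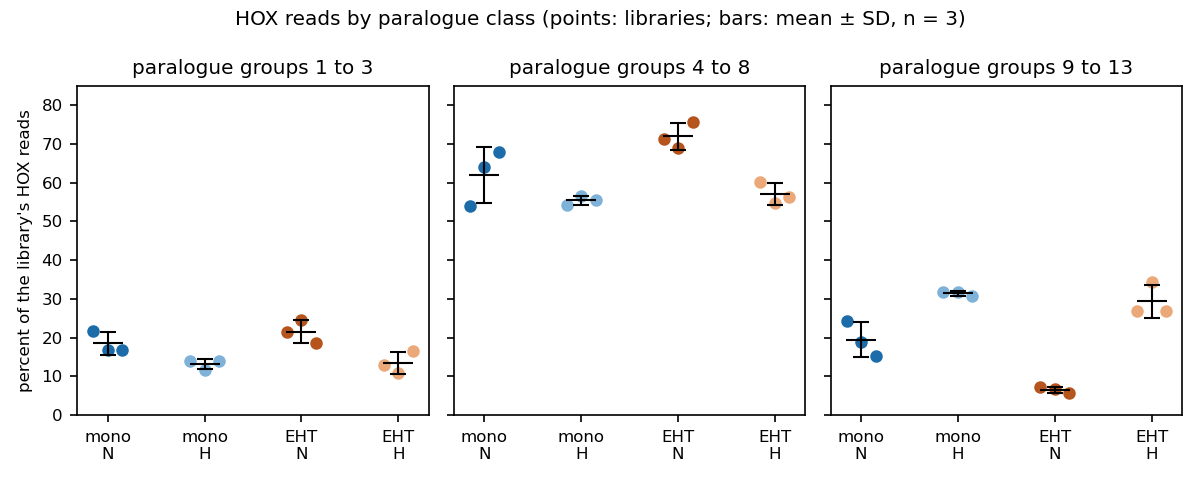
Share of a library's HOX reads (percent) from anterior, central and posterior members; points are libraries, bars mean ± SD (n = 3). The posterior share is 6.48% in the EHTs in normoxia and 29.4% in the EHTs after hypoxia.

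In normoxia, HOX genes were lower in EHT than in monolayer. Of the 26 members tested, 15 were lower and 0 higher (limma, Benjamini-Hochberg adjusted p under 0.05), where 42.6% of all 12084 genes tested were called, 23.9% lower and 18.7% higher. All 26 differences were below 0, 20 members had groups that did not overlap, beside 56.4% of all genes tested, and 19 had an unadjusted p under 0.05, beside 50.4%. The median log2 difference was -2.18 (-2.25 with genes without reads in EHT set at their bound), beside -0.08 over all genes tested. Of the 15, 7 are among the 9 members that passed the filter on low values through their monolayer reads. These 9 had to be lower in EHT over both oxygen groups together, which favoured this direction in normoxia. Of the 17 members that EHT reads alone would have passed, 8 were lower, with a median log2 difference of -1.75 over the 17. By class, 3 of 5 anterior, 6 of 13 central and 6 of 8 posterior members were lower. In the same comparison 7 of 10 cardiomyocyte markers and 6 of 7 epithelial markers were lower and 0 higher, and their part in the HOX differences was not tested.

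All 5 tested members of cluster D were among those 9, so the filter favoured their direction in EHT and their sizes are given as a description. The log2 difference was -5.59 ± 1.08 for HOXD4 (SE, adjusted p = 0.00146), -5.20 ± 0.82 for HOXD3 (adjusted p = 0.000362) and -5.05 ± 0.90 for HOXD1 (adjusted p = 0.000811). HOXD10 was lower by -3.60 ± 0.73 (adjusted p = 0.00199) with no read in EHT, and was at least 11.1-fold higher in monolayer. HOXD8, at -3.98 ± 1.09 (adjusted p = 0.0112), was no longer called without monolayer normoxia library 3 or EHT normoxia library 1.

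In clusters A, B and C, 10 of 21 tested members were lower in EHT in normoxia. Cluster C had 3 of 6. HOXC13, which passed the filter through its monolayer reads, differed by -4.96 ± 0.81 (adjusted p = 0.000436) and was at least 43.5-fold higher in monolayer, or at least 17.4-fold without monolayer normoxia library 1, which held 175 of its 234 reads. HOXC6 differed by -3.39 ± 0.86 and HOXC4 by -2.43 ± 0.49 (adjusted p = 0.00749 and 0.00182). HOXC10, also without reads in EHT, was not called (-1.98 ± 1.01, adjusted p = 0.135), as a normoxic monolayer had none either. Cluster A had 5 of 9, among them HOXA6 at -3.27 ± 0.88, HOXA9 at -2.15 ± 0.57, HOXA11 at -1.75 ± 0.34 and HOXA10 at -2.30 ± 0.76, with adjusted p-values of 0.0105, 0.00983, 0.00155 and 0.0288. HOXA10 passed the filter through its monolayer reads, which favoured a lower level in EHT. It was not called without monolayer normoxia library 1 or 2 or EHT normoxia library 1 or 2. Cluster B had 2 of 6, namely HOXB9 at -4.70 ± 1.05 (adjusted p = 0.00365) and HOXB7 at -1.81 ± 0.67 (adjusted p = 0.0462), and HOXB7 was lost when any of the 6 libraries was left out. HOXB4, at -0.51 ± 0.22 (adjusted p = 0.0746), and HOXA5, at -0.71 ± 0.45 (adjusted p = 0.226), were not called.

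The direction was the same under each scaling tried. With the deposited values as they stand, 21 members were lower and 0 higher, with library totals as the scale 19 and 0, and with deposited values centred on library medians 14 and 0. Over all genes the split moved from 2885 lower and 2259 higher to 3099 and 325 on deposited values, to 4209 and 1289 on library totals and to 2234 and 2750 after centring. The median of all genes was -0.66 on deposited values and -0.38 on library totals.

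After hypoxia, HOX genes were again lower in EHT than in monolayer, and no member of cluster B was called. Of the 26 members 13 were lower and 0 higher, where 39.9% of all genes tested were called, 22.0% lower and 17.8% higher. Of these 13, 6 are among the 9 members that passed the filter through their monolayer reads, and 7 are among the other 17. Of the members 15 had an unadjusted p under 0.05, all lower, beside 48.9% of all genes tested. With voom 12 were lower and 0 higher, where 35.1% of all genes were called, 2386 lower and 1859 higher. The median log2 difference was -2.18, beside -0.08 over all genes. By class, 2 of 5 anterior, 4 of 13 central and 7 of 8 posterior members were lower. Of the 10 cardiomyocyte markers 8 were lower, and of the 7 epithelial markers 2. No library is shared with the comparison in normoxia. Without EHT hypoxia library 3, 9 members were lower and 0 higher, against 21.2% and 17.7% of all genes. Scaling by library totals gave 11 lower and 0 higher members while all genes turned from 2664 lower and 2154 higher to 2061 and 2647.

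Cluster A had 6 of 9 members lower in EHT after hypoxia. HOXA10, which passed the filter through its monolayer reads, differed by -5.48 ± 0.76 on the log2 scale (adjusted p = 0.000227). HOXA6 differed by -3.31 ± 0.88 (adjusted p = 0.0107) and HOXA9 by -2.87 ± 0.57 (adjusted p = 0.0021). HOXA3 differed by -2.82 ± 0.54, HOXA11 by -2.43 ± 0.34 and HOXA5 by -2.02 ± 0.45 (adjusted p = 0.00166, 0.000242 and 0.00388). These 6 held when any of the 6 libraries was left out. Cluster C had 5 of 6, of which HOXC8 at -3.96 ± 0.92 (adjusted p = 0.00512) and HOXC13 at -3.87 ± 0.81 (adjusted p = 0.0027) held likewise. HOXC10 at -3.12 ± 1.01, HOXC9 at -2.81 ± 0.92 and HOXC6 at -2.38 ± 0.86 (adjusted p = 0.0274, 0.0282 and 0.0438) were not called without EHT hypoxia library 3 or without any of the hypoxic monolayers. In cluster D, HOXD10 differed by -2.90 ± 0.73 (adjusted p = 0.00815), and HOXD1 by -2.47 ± 0.90 (adjusted p = 0.0447), lost without any of those same 4 libraries. HOXD3 differed by 0.13 ± 0.82 (adjusted p = 0.916). Like HOXA10, the members HOXC9, HOXC10, HOXC13, HOXD1 and HOXD10 passed the filter through their monolayer reads, which favoured lower levels in EHT.

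In cluster B no member was called after hypoxia, with 1 of 6 at an unadjusted p under 0.05 (48.9% of all genes). Of the 6, 0 were called by voom (35.1% of all genes) and 1, HOXB8, on the deposited values (12.9%). HOXB8 differed by -2.34 ± 0.93 (adjusted p = 0.0618), HOXB9 by -0.06 ± 1.05 (adjusted p = 0.972) and HOXB4 by -0.20 ± 0.22 (adjusted p = 0.488). Without EHT hypoxia library 2, HOXB5, HOXB6 and HOXB8 were lower in EHT, and without EHT hypoxia library 1, HOXB8.

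In monolayers after hypoxia 4 of 26 members were higher and 5 lower than in normoxia, where 46.5% of all genes tested were called, 23.4% higher and 23.1% lower. The 4 that rose were HOXA5, HOXA6, HOXA11 and HOXC10, and those that fell included HOXB4, HOXB6, HOXC4 and HOXD3. Of these, HOXC10 and HOXD3 passed the filter on low values through the monolayer group in which they were higher. Without monolayer normoxia library 3 the counts were 2 higher and 3 lower. The groups did not overlap for 21 of the 26 members, beside 64.1% of all genes tested, and the median log2 difference was -0.76, beside -0.08 over all genes. Cluster A had 3 higher and 1 lower of 9, cluster B 0 and 2 of 6, cluster C 1 and 1 of 6, and cluster D 0 and 1 of 5. By class, anterior members were 0 higher and 2 lower of 5, central 2 and 3 of 13, and posterior 2 and 0 of 8. All 6 cluster B differences were below 0 and 6 of the 8 posterior ones above 0.

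HOXA11 rose by 2.33 ± 0.34 on the log2 scale (SE, limma adjusted p = 0.000172) and HOXC10 by 3.48 ± 1.01 (adjusted p = 0.0135), the latter not called without monolayer normoxia library 3, where it had no read. HOXC10 passed the filter on low values through its hypoxic monolayer reads, which favoured this direction. HOXA6 rose by 2.31 ± 0.88 (adjusted p = 0.048), a call lost when any of the 6 libraries was left out. HOXA5 rose by 1.48 ± 0.45 (adjusted p = 0.0166), lost without monolayer normoxia library 2 or monolayer hypoxia library 3. HOXA9, at 1.18 ± 0.57 (adjusted p = 0.11), and HOXD10, at 1.62 ± 0.73 (adjusted p = 0.0885), were not called although their groups did not overlap.

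HOXB4 fell in hypoxic monolayers, with a log2 difference of -1.94 ± 0.22 (adjusted p = 2.36e-05). HOXD3 differed by -3.77 ± 0.82 (adjusted p = 0.00265), and both held when any library was left out. HOXD3 passed the filter on low values through its normoxic monolayer reads, which favoured this direction. HOXC4, at -1.57 ± 0.49 (adjusted p = 0.0186), was lost without monolayer normoxia library 3 or monolayer hypoxia library 2. HOXB6, at -1.14 ± 0.34 (adjusted p = 0.0162), was lost without monolayer normoxia library 3 or monolayer hypoxia library 3. Summed epithelial markers were 968 to 5013 RPM in the normoxic monolayers and 39.3 to 47.8 in the hypoxic ones, and their part in these HOX differences was not tested.

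The balance of HOX calls in monolayers moved with the scale. It was 4 higher and 5 lower here, 3 and 9 on deposited values, 2 and 7 on library totals, 6 and 5 after centring. Over all genes the split was 2831 higher and 2786 lower here, 535 and 2410 on deposited values (median of all genes -0.47), and 1070 and 5791 on library totals (median -0.72). HOXA5 was not called on deposited values or on library totals, and HOXA6 was not called on library totals. HOXA11 and HOXC10 rose and HOXB4, HOXB6, HOXC4 and HOXD3 fell under each of these scales.

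In EHT after hypoxia 3 of 26 members were higher and 2 lower, where 37.8% of all genes tested were called, 19.5% higher and 18.2% lower. HOXB9, HOXA11 and HOXD10 rose and HOXB4 and HOXA3 fell. The median log2 difference was 0.41, also with genes at their bound, beside 0.01 over all genes. Cluster A had 1 higher and 1 lower of 9, cluster B 1 and 1 of 6, and cluster D 1 and 0 of 5. Cluster C had 0 and 0 of 6, with 2 at an unadjusted p under 0.05 (46.6% of all genes) and 0 called by voom (34.6%). The 5 cluster D members had at most 6 reads in any normoxic EHT library, so their differences had little room below 0. Of the 10 cardiomyocyte markers 2 were higher and 0 lower, and of the 7 epithelial markers 5 were higher and 1 lower.

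HOXB9 rose by 3.98 ± 1.05 on the log2 scale (adjusted p = 0.0106), HOXA11 by 1.65 ± 0.34 (adjusted p = 0.00258), and HOXB4 fell, with a difference of -1.63 ± 0.22 (adjusted p = 0.000129). These 3 held when any library was left out, and without EHT normoxia library 3, where HOXB9 had no read, its difference was 2.32 (adjusted p = 0.00592). With the EHT groups fitted alone HOXB9 was not called (adjusted p = 0.0796). On the deposited values HOXA11 and HOXB4 were not called. HOXD10 rose by 2.32 ± 0.73 (adjusted p = 0.0253) and was at least 7.63-fold higher after hypoxia, a call lost without EHT normoxia library 1 or 2 or EHT hypoxia library 2. EHT hypoxia library 2 held 14 of its 16 reads, and without that library no bound could be given. HOXD10 was also not called on deposited values, as they stand or centred, with a pseudocount of 4 or with the EHT groups fitted alone. HOXA3 fell, with a difference of -1.61 ± 0.54 (adjusted p = 0.0338) between groups that overlapped, and was not called without EHT normoxia library 1 or 2 or EHT hypoxia library 3.

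The number of calls in EHT depended on the pairing of libraries and on 1 library. EHT libraries with the same replicate number deviated together from their group means, so the replicate number was also fitted as a block within EHT. With the block, 6 members were higher and 5 lower, against 21.5% and 20.1% of all genes. The members added were HOXA6, at 2.27 ± 0.28 (adjusted p = 7.43e-05), HOXD1 and HOXD4 as higher and HOXA10, HOXB5 and HOXC8 as lower, the last at -2.35 ± 0.43 (adjusted p = 0.00118). Without EHT hypoxia library 3, 11 were higher and 1 lower, against 24.4% and 21.2% of all genes. HOXD4 then differed by 3.93 ± 0.68 (adjusted p = 0.000556), HOXD1 by 2.85 ± 0.58 (adjusted p = 0.00168) and HOXA6 by 3.34 ± 0.71 (adjusted p = 0.00236), while HOXA3 at -0.83 ± 0.35 (adjusted p = 0.066) was not called. Without EHT hypoxia library 2, 2 were higher and 6 lower, and without EHT normoxia library 2 it was 2 and 1. On deposited values 2 were higher and 0 lower, and on library totals 3 and 5. Over all genes the split was 2359 higher and 2204 lower here, 858 and 270 on deposited values (median 0.18) and 1637 and 3013 on library totals (median -0.19).

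**Figure D4:**
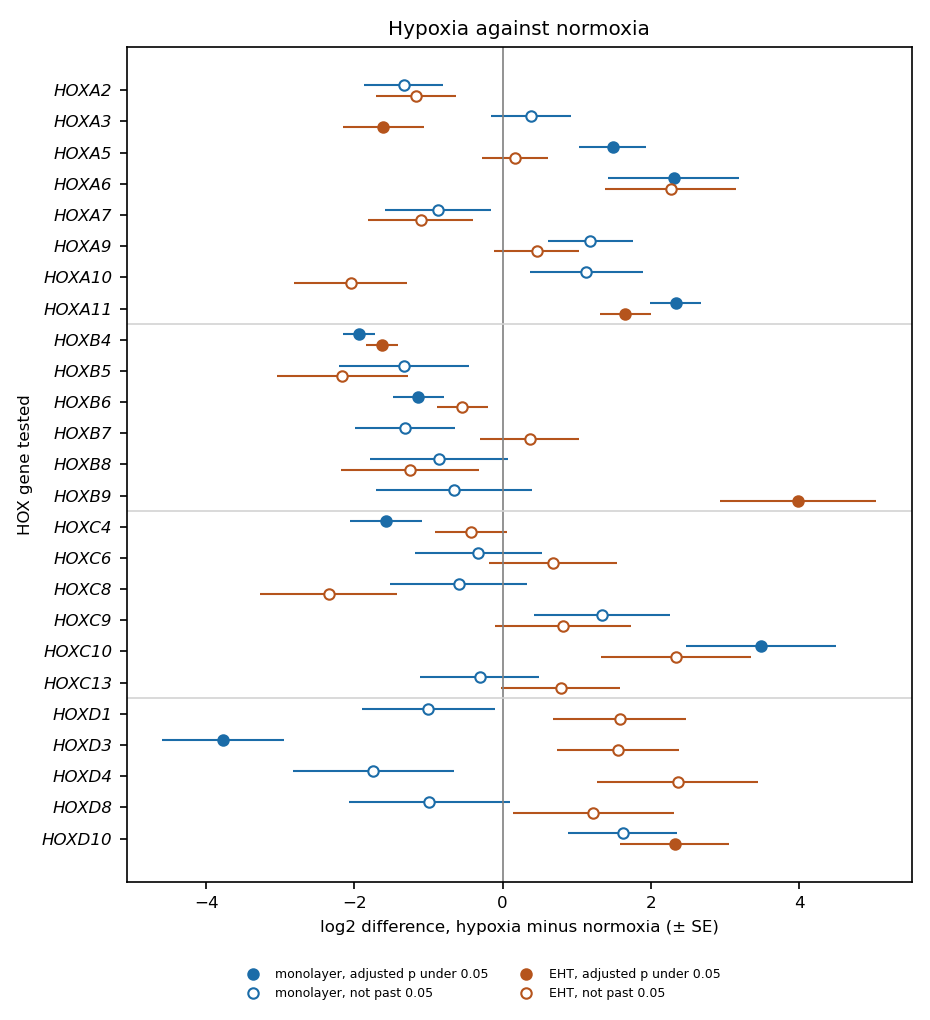
Log2 difference, hypoxia minus normoxia, of the tested HOX genes reported by name in monolayer (blue) and EHT (orange), with SE; filled points have an adjusted p under 0.05. HOXA11 lies above 0 and HOXB4 below 0 with filled points in both cultures, and HOXB9 has a filled point in EHT, at 3.98.

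The difference between the cultures in their response to hypoxia was tested as the interaction, the hypoxia difference in EHT minus that in monolayer. It was above 0 for 3 members and below 0 for 1 of 26, where 25.5% of all genes tested were called, 12.7% above 0 and 12.8% below, with a median of 0.24 beside 0.05 over all genes. HOXD3 had an interaction of 5.32 ± 1.16 (adjusted p = 0.00608), which stayed past the threshold in each alternative that tested it. HOXD3 had 0, 1 and 1 reads in the normoxic EHTs and could not fall further there, so this value is bounded by the floor in EHT. It passed the filter on low values through its normoxic monolayer reads, which favoured a fall in monolayers and an interaction above 0. Its levels fell in the hypoxic monolayers and were 6.85, 9.95 and 0 rescaled reads in the hypoxic EHTs against 0, 0.839 and 0.839 in the normoxic ones. HOXB9 had an interaction of 4.64 ± 1.49 (adjusted p = 0.038) and HOXA10 of -3.18 ± 1.08 (adjusted p = 0.0473). Both of these calls rested on most of the 12 libraries. On leaving out 1 library HOXA10 was called only without EHT hypoxia library 2, and HOXB9 only without EHT hypoxia library 3 or any of the EHT normoxia libraries. Both were lost with a pseudocount of 0.5, and HOXA10 also on deposited values and on library totals. Of the 7 epithelial markers the interaction was above 0 for 6 and below 0 for 1, and their part here was not tested. HOXD4 missed the threshold at 4.11 ± 1.53 (adjusted p = 0.0677), as did HOXA3 at -1.99 ± 0.77 (adjusted p = 0.0754), HOXB4 at 0.31 ± 0.30 (adjusted p = 0.492) and HOXA11 at -0.68 ± 0.48 (adjusted p = 0.331). Without EHT hypoxia library 3, 8 members were above 0 and 0 below, against 17.7% and 16.5% of all genes. Over all genes the split was 1531 above and 1550 below, against 1147 and 102 on deposited values (median 0.62) and 2900 and 688 on library totals (median 0.49), and the HOX split was 3 and 0 on deposited values and 4 and 0 on library totals.

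Most HOX cofactor genes tested were lower in EHT in normoxia. Of 10 such genes listed (PBX, MEIS and PKNOX families and PBXIP1), 9 were tested, and 5 were lower and 2 higher in EHT in normoxia, with a median log2 difference of -1.15 beside -0.08 over all genes. MEIS3 differed by -1.95 ± 0.16, MEIS2 by -1.61 ± 0.15 and MEIS1 by -1.54 ± 0.18 (adjusted p = 4.08e-06, 1.07e-05 and 4.15e-05), and PBXIP1, which binds and inhibits PBX proteins, by 2.10 ± 0.20 (adjusted p = 1.01e-05). After hypoxia 5 were lower and 1 higher in EHT, with MEIS3 at -0.98 ± 0.16 (adjusted p = 0.000683). In monolayers 6 were lower and 1 higher after hypoxia, with MEIS2 at -1.22 ± 0.15 (adjusted p = 5.98e-05), and in EHT PBXIP1 was the only one of the 9 called (-1.44 ± 0.20, adjusted p = 0.000172). Beside these counts, 42.6% of all genes tested were called between cultures in normoxia and 39.9% after hypoxia. Between oxygen groups it was 46.5% in monolayers and 37.8% in EHT.

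Among ParaHox and cluster-flanking homeobox genes 1 of 8 in the table was tested. CDX2, a ParaHox factor that binds HOX clusters in trunk development, had 3.36, 27.6 and 8.10 RPM in the normoxic monolayers, 1.56, 0.196 and 0 in the hypoxic monolayers and 0 in all 6 EHTs. It differed by -3.94 ± 0.99 between hypoxic and normoxic monolayers (adjusted p = 0.00611), and in normoxia it was at least 74.5-fold higher in monolayer than in EHT. It passed the filter through its normoxic monolayer reads, so both directions were favoured by the filter and both sizes are a description.

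Retinoic acid genes, 16 of them tested, were 8 lower and 3 higher in EHT in normoxia and 8 lower and 2 higher after hypoxia, with medians of -0.998 and -1.20. CRABP1, a retinoic acid binding protein of the cytoplasm, had 1152, 1305 and 873 RPM in the normoxic monolayers, 2124, 2202 and 1702 in the hypoxic monolayers, and from 0.129 to 29.5 in the EHTs. It differed by -9.20 ± 1.48 in normoxia (adjusted p = 0.000409). CRABP2 differed by -3.85 ± 0.25 between EHT and monolayer in normoxia (adjusted p = 8.22e-07), and in EHT it rose after hypoxia by 4.21 ± 0.25 (adjusted p = 3.86e-07). The receptor RARG was lower in EHT after hypoxia, at -1.90 ± 0.17 (adjusted p = 1.19e-05), and rose in hypoxic monolayers by 1.29 ± 0.17 (adjusted p = 7.7e-05). After hypoxia 6 of the 16 were higher and 3 lower in monolayers, with a median of 0.58, and 2 were higher and 3 lower in EHT, with a median of 0.41. The shares of all genes called were 42.6% and 39.9% between cultures in normoxia and after hypoxia. They were 46.5% and 37.8% between oxygen groups in monolayers and EHT.

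Of 21 trithorax and Polycomb genes tested, whose products keep HOX clusters active or silent, 6 were lower and 2 higher in EHT in normoxia (median -0.19) and 5 lower and 6 higher after hypoxia (median 0.01). EZH2, the methyltransferase of Polycomb complex PRC2, differed by -2.10 ± 0.19 in normoxia (adjusted p = 7.37e-06) and by -1.79 ± 0.19 between hypoxic and normoxic monolayers (adjusted p = 1.72e-05). After hypoxia 5 were higher and 4 lower in monolayers (median 0.18), and PHC3, a PRC1 component, rose by 2.25 ± 0.23 (adjusted p = 1.25e-05). In EHT 8 were higher and 2 lower after hypoxia (median 0.23), with JARID2, a PRC2 partner, up by 1.22 ± 0.15 (adjusted p = 9.25e-05). These counts stand beside 42.6% and 39.9% of all genes called between cultures in normoxia and after hypoxia. Between oxygen groups, 46.5% of all genes were called in monolayers and 37.8% in EHT.

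Of 22 other positional transcription factors tested, 7 were lower and 6 higher in EHT in normoxia. The limb mesenchyme factor PRRX1 was higher by 2.26 ± 0.18 (adjusted p = 2.95e-06), while the hindlimb factors PITX1 and TBX4 differed by -4.03 ± 0.71 and -4.56 ± 0.94 (adjusted p = 0.000742 and 0.00222). The median was -1.31. After hypoxia 6 were lower and 3 higher in EHT (median -1.53), with TBX5, a heart and forelimb factor, at -2.15 ± 0.28 (adjusted p = 0.000132). Hypoxic monolayers had 7 higher and 3 lower (median 0.27), with PRRX1 up by 2.78 ± 0.18 (adjusted p = 5.69e-07), and hypoxic EHTs 4 higher and 3 lower (median 0.02), with FOXC2 at -2.54 ± 0.37 (adjusted p = 0.000268). Across all genes tested, 42.6% were called between cultures in normoxia and 39.9% after hypoxia. The oxygen groups gave 46.5% in monolayers and 37.8% in EHT.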

How the data were processed

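RNA was sequenced on an Ion Proton instrument from libraries made with the Ion Total RNA-Seq Kit v2, per the labels' protocols. HISAT2, featureCounts and DESeq2 are named in the submitters' processing notes; for versions, genome build, annotation, strand setting and multiply mapped reads, the entry is: not given in the sources used here. Reads of antisense RNAs or of near-identical stretches of HOX paralogues therefore cannot be told apart from those of the gene. The deposited values are log2 values after the variance-stabilising transformation of the authors, for 16745 genes in 12 libraries.

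With M as 2 to the power of the table minimum and E as 2 to the power of a value, (E - M) squared over E is proportional to reads. In every library 100% of the values were whole multiples of 1 read within 0.01. Recovered reads were divided by median-of-ratios factors over the 10760 genes with reads in each library. The deposited values imply scaling factors that were 0.412 to 1.42 times these, and their library medians ran from 6.98 to 8.75. Reads after rescaling were tested as log2(value + 1) with limma 3.58.1 in R 4.3.3 (trended empirical Bayes, 1 mean for each of 4 groups, Benjamini-Hochberg over 12084 genes, threshold 0.05). The genes tested had a mean deposited value at least 1 log2 unit above the minimum. Fold changes on this scale understate those of low genes. The scripts were tested on simulated data with 1 dispersion, 0.05, for all genes, so the spread of single members was not modelled. There 38.8% to 52.2% of 2-fold changes were recovered, by comparison. False calls were 1.27% to 9.84% of calls, and the highest share was for hypoxia in EHT.

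Members were named, with each library's values where it averaged 20 reads or was called; of each related list, up to 3 called genes per direction and comparison with the smallest adjusted p were eligible; some genes are not reported here by name and stay in the counts, shares and sums. Members and lists were chosen with earlier results of these data known. A group without reads was set at 3 reads over the group to give a bound. Alternatives were the deposited values as they stand or centred on library medians, voom, library totals, pseudocounts of 0.5 and 4, no filter, a filter at 2 log2 units, the groups compared alone, a replicate block and leaving out each library. Same-numbered libraries deviated together in EHT, with correlations of 0.109, 0.263 and 0.328 over genes between normoxia and hypoxia. In the other comparisons the correlations were -0.066 to 0.193, not all above 0.1, so the block was used beside the result only within EHT, a fit added after seeing the data. Intervals and floors cover counting error only.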

Additional observations from a re-analysis of the deposited data

Results flagged for a closer look

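The difference between cultures in the response to hypoxia was above 0 for 3 and below 0 for 1 of 26 HOX genes tested. This was by the test of that difference itself (limma, adjusted p under 0.05 over all genes), where 25.5% of all genes tested were called. HOXD3, HOXB9 and HOXA10 were among the HOX genes called. The hypoxia difference in EHT minus that in monolayer was 5.32 for HOXD3, 4.64 for HOXB9 and -3.18 for HOXA10 on the log2 scale. HOXD3 moved down in monolayers, by a called difference of -3.77 ± 0.82, and its difference in EHT, 1.56 ± 0.82, was not called. With 0, 1 and 1 reads in the normoxic EHTs it could not fall further there. It passed the filter on low values through its normoxic monolayer reads, which favoured a fall in monolayers and a value above 0 here. HOXB9 moved up in EHT, by 3.98 ± 1.05, and its difference in monolayers, -0.66 ± 1.05, was not called. HOXA10 was called in neither culture alone, with 1.13 ± 0.76 in monolayers and -2.05 ± 0.76 in EHT. On leaving out 1 library the HOXA10 interaction was called only without EHT hypoxia library 2. It was also lost on deposited values, library totals, a pseudocount of 0.5, without the filter and under the filter at 2 log2 units. Leaving out both EHT libraries numbered 3 lost it too. HOXA10 passed the filter through its monolayer reads, and had 3, 10 and 13 reads in the normoxic EHTs and 0, 7 and 0 in the hypoxic ones. That of HOXB9 was called only without EHT hypoxia library 3 or any of the EHT normoxia libraries, and was lost with a pseudocount of 0.5.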

How the results depend on the processing

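Lower HOX levels in EHT kept their direction in normoxia in each alternative run. After hypoxia some members that were not called changed sign, as given below. In neither comparison was any member called higher, with 0 in each run. The members lower in normoxia numbered 9 to 21, with 9 under the filter at 2 log2 units, which tested 18 members, and 12 to 15 on leaving out 1 library. After hypoxia they numbered 8 under that filter and 9 to 18 on leaving out 1 library. For hypoxia in monolayers, voom called 14 (51.4% of all genes) and the groups compared alone 20 (56.6%), beside 46.5% above, and leaving out 1 library gave 5 to 8. For hypoxia in EHT, deposited values and the groups compared alone each called 2, library totals 8, the replicate block over all 12 libraries 8, the block within EHT 11, and leaving out both EHT libraries numbered 3 called 14, while leaving out 1 library gave 3 to 12. For the interaction, a pseudocount of 0.5 and the filter at 2 log2 units each called 2, leaving out both EHT libraries numbered 3 called 9, and leaving out 1 library gave 1 to 8. The replicate block left 15, 13 and 9 calls in the comparisons other than that of oxygen in EHT; in normoxia 14 members were called with and without it, HOXB7 being lost, and in the interaction it called 3.

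For HOXB9 after hypoxia, EHT minus monolayer was 0.086 with voom, 0.081 on library totals and 0.62 without both EHT libraries numbered 3, and -0.55 to 0.62 on leaving out 1 library. For HOXD3 it was -0.023 on deposited values, -0.061 with a pseudocount of 0.5, and -0.53 to 1.20 on leaving out 1 library. Neither HOXB9 nor HOXD3 was called in any of these, and the cause was not tested. Among other members, HOXB6, HOXB7 and HOXD4 also turned above 0 in some runs after hypoxia. On leaving out 1 library they reached 0.088, 0.85 and 0.078, and none was called while above 0. With median-of-ratios scaling, summed HOX levels, as RPM on that scale, in the monolayers in normoxia and after hypoxia were 374 and 361 for all members, 117 and 227 for cluster A, 142 and 58.9 for cluster B, 69.4 and 47.7 for anterior and 232 and 200.1 for central members. After hypoxia they were 57.8 for cluster C, 17.2 for cluster D and 113 for posterior members. Counting up to 3 reads as none, 5 members were low in every hypoxic monolayer and 4 in all 12 libraries. A count of 0 allows up to 3 reads in a library, so HOX levels below that were not detectable at these depths.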
